A study of Mus musculus with 12 samples.

Results

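The genes described here are those of motile cilia and of the ependyma, the ciliated layer that lines the central canal of the spinal cord. They were chosen by name: every protein-coding gene whose symbol begins with Dnah, Dnai, Cfap, Tekt, Rsph or Drc followed by a digit, together with Foxj1, Ccdc153, Tmem212, Dynlrb2 and Rarres2. This rule uses no measured value and gives 87 genes of the 57180 in the tables. Their RNA was measured by bulk paired-end sequencing in 12 libraries of injured spinal cord from female wild-type C57BL/6J mice, 4 biological replicates in each of 3 groups. All groups carry a clip compression injury at T9-T10 and were sampled 7 days later, the sample reaching some 0.5 cm above and below the lesion. SCI7 is the injury with no other surgery, and in OVX2_SCI7 and OVX8_SCI7 the ovaries had been removed 2 and 8 weeks ahead of the injury. Every label gives an age of 8 weeks without saying at which event, so age at injury may differ between the groups, and ovariectomy, time since surgery and age cannot be told apart. Uninjured and sham-operated cord was not analysed here.

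Motile cilia are built around a ring of microtubule doublets with a central pair, the axoneme. Dynein motors, set in outer and inner arms along each doublet, slide the doublets past each other, while radial spokes, the nexin-dynein regulatory complex and the central pair set the timing of the beat. The transcription factor FOXJ1, with factors of the RFX family, switches on the genes of this machinery in cells that carry motile cilia, and in the spinal cord these are mainly the ependymal cells that move cerebrospinal fluid through the central canal. Many Cfap genes, named for cilia and flagella associated proteins, also act in sperm tails, in primary cilia or in cells without cilia.

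RFX proteins bind the X-box, each arm of which reads GTTGCCA. That motif was searched on both strands. RefSeq promoter windows on GRCm38.p6, each from 250 bases before to 50 after a transcript start, were available for 71 of the 87 genes, with 79 windows in all. The X-box arm stood in 15 of these 79 windows (19%, 14 genes) and in 1439 of all 32851 windows (4.38%). The forkhead core TGTTTAC, the kind of sequence FOXJ1 and its relatives bind, was searched likewise and stood in 4 of 79 windows (5.06%) and in 3.65% of all windows. Such a match describes the letters of the window, and binding was not measured. The 100 bases before the start are printed for 4 genes whose match lies near it, to show where the motif sits. The matches, in either orientation, are in capitals, and each sequence reads 5′ to 3′ on the strand of its gene.
Cfap161, chr7:83794840-83794939, minus strand: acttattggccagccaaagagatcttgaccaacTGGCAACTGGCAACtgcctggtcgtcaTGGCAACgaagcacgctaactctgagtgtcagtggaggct
Cfap44, chr16:44394699-44394798, plus strand: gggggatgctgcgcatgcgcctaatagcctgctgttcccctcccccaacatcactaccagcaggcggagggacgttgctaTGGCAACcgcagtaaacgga
Drc1, chr5:30281293-30281392, plus strand: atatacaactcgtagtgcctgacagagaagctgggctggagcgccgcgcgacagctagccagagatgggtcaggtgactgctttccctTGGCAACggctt
Tekt1, chr11:72361883-72361982, minus strand: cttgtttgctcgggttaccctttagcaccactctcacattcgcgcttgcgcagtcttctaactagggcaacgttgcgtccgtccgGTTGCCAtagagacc
Cfap161 holds 3 matches, which begin 67, 60 and 40 bases before the start. In Cfap44 the printed match begins 20 bases before the start, and another at 130 bases lies outside the stretch. The match of Drc1 begins 12 bases and that of Tekt1 15 bases before the start.

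The libraries held 18222729 to 31781695 counts, so that a floor of 3 counts equals 0.0944 to 0.165 counts-per-million (CPM). Mitochondrial transcripts took 5.35 to 9.35% of counts in SCI7, 8.33% in OVX2_SCI7 replicate 1 and 2.2 to 3.36% in the other 7 libraries. Replicate 1 of OVX2_SCI7 also resembled SCI7 in the dependence of gene levels on the GC content of transcripts. Across genes its Spearman correlation was -0.41, where SCI7 libraries lay between -0.82 and -0.50 and the other ovariectomy libraries between 0.16 and 0.84. Replicate 2 of OVX2_SCI7 held transcripts of sensory neurons at a summed 464 TPM over 5 markers, against 16.8 to 106 TPM in the other 11 libraries. Values without 1 or both of these libraries stand below beside the main results they move.

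The genes were low in this tissue. TPM, the transcripts-per-million scale, allows for transcript length, and on this scale 11 of the 87 genes had a mean of at least 10, 47 of 1 to 10, and 29 under 1. Summed over the 87 genes, the level was 477 to 585 TPM in SCI7, 480 to 641 TPM in OVX2_SCI7 and 469 to 514 TPM in OVX8_SCI7, and the groups overlapped. The Cfap genes held most of this sum, and the leading one, Cfap36, a binding partner of the small GTPase ARL3, stood at 92.6 ± 15.4 (SD, n = 4), 86.9 ± 26.99 and 80.4 ± 8.74 TPM in SCI7, OVX2_SCI7 and OVX8_SCI7. Because the tissue is bulk, fewer ciliated cells and less RNA per cell cannot be told apart. Of the 87 genes, 74 passed the low-count filter and were tested among 17820 genes. The other 13 (Cfap299, Cfap95, Cfap276, Cfap73, Cfap157, Cfap53, Cfap221, Cfap107, Cfap58, Cfap97d1, Rsph14, Rsph6a and Tekt3) had at most 21 counts in any library, and Cfap97d1 had 0 in all 12.

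Foxj1, the regulator of motile ciliogenesis, rose in OVX8_SCI7, and its OVX2_SCI7 libraries also lay above those of SCI7. Foxj1 stood at 18.4, 14.6, 19.6 and 19.2 CPM in SCI7 libraries 1 to 4, 26.6, 41.8, 25.8 and 34.7 CPM in those of OVX2_SCI7 and 26.8, 38.2, 32.7 and 21.1 CPM in those of OVX8_SCI7. All 8 ovariectomy libraries lay above the 4 SCI7 libraries. In OVX8_SCI7 Foxj1 rose by a log2 fold change of 0.73 ± 0.21 (SE), with an adjusted p of 0.0277 by the edgeR quasi-likelihood test. In OVX2_SCI7 the difference was 0.84 ± 0.21 and missed the threshold of 0.05, at an adjusted p of 0.052. The Foxj1 transcript has the highest GC content of the tested members, 61.4%, and with the dependence on GC content and length taken out of every library, the difference was -0.14 in OVX8_SCI7 and 0.24 in OVX2_SCI7 (unadjusted p = 0.409 and 0.175, edgeR).

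The other ependymal markers had higher means in OVX2_SCI7 than in SCI7, and none passed the adjusted edgeR test there with all 12 libraries. DESeq2 called Ccdc153 and Rarres2 (adjusted p = 0.0211 and 0.0121), and limma-voom with quality weights called these with Tmem212 and Dynlrb2. Of all genes, the former called 20.8% and the latter 54.4% in that comparison. Tmem212, a transmembrane protein gene used as an ependymal marker, separated OVX2_SCI7 from both other groups. Tmem212 stood at 0.845, 0.43, 1.04 and 0.404 CPM in SCI7 libraries 1 to 4, 1.38, 1.11, 1.45 and 1.3 CPM in those of OVX2_SCI7 and 0.97, 0.683, 0.30 and 0.54 CPM in those of OVX8_SCI7. Each of the 4 OVX2_SCI7 libraries lay above all 8 others, although a level near 1 CPM rests on few reads. The log2 fold change was 0.94 ± 0.38 in OVX2_SCI7 against SCI7 (unadjusted p = 0.0291, adjusted p = 0.114, edgeR) and -1.05 ± 0.38 in OVX8_SCI7 against OVX2_SCI7 (unadjusted p = 0.0166, adjusted p = 0.999). Against SCI7, OVX8_SCI7 differed by -0.11 ± 0.39.

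Dynlrb2, a light chain of the dyneins, and Ccdc153, a coiled-coil protein of ependymal cilia, also had their highest group mean in OVX2_SCI7. Of the other groups, SCI7 had the higher mean CPM for Dynlrb2 and OVX8_SCI7 for Ccdc153. For Dynlrb2 that order depended on the scale, as OVX8_SCI7 differed from SCI7 by -0.355 in edgeR and by 0.03 on log2(TPM + 1). Dynlrb2 stood at 1.0, 0.537, 1.31 and 0.404 CPM in SCI7 libraries 1 to 4, 1.64, 0.789, 1.5 and 1.5 CPM in those of OVX2_SCI7 and 0.837, 0.776, 0.35 and 0.54 CPM in those of OVX8_SCI7. OVX2_SCI7 replicate 2 stood apart at the level of the other groups, and the groups overlapped. Ccdc153 stood at 1.74, 1.72, 2.24 and 0.909 CPM in SCI7 libraries 1 to 4, 3.13, 2.04, 4.88 and 3.63 CPM in those of OVX2_SCI7 and 2.69, 1.89, 1.6 and 1.57 CPM in those of OVX8_SCI7. Here too the 3 groups overlapped, with OVX2_SCI7 replicate 3 the highest library. In OVX8_SCI7 against OVX2_SCI7 the log2 fold change was -1.09 ± 0.41 for Dynlrb2 (unadjusted p = 0.0201) and -0.81 ± 0.33 for Ccdc153 (unadjusted p = 0.028), and neither passed after adjustment (edgeR, adjusted p = 0.999 for both). Without OVX2_SCI7 replicates 1 and 2 these values were -1.23 and -1.13, and that of Tmem212 was -1.11.

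Rarres2 encodes chemerin, a secreted attractant of leukocytes that fibroblasts make as well as ependymal cells. Rarres2 stood at 9.72, 7.9, 7.03 and 10.4 CPM in SCI7 libraries 1 to 4, 9.17, 14.9, 23.6 and 17.9 CPM in those of OVX2_SCI7 and 17.3, 13.4, 11.4 and 13.1 CPM in those of OVX8_SCI7. All OVX8_SCI7 libraries exceeded those of SCI7, and OVX2_SCI7 replicate 1 lay within the range of SCI7. The log2 fold change was 0.91 ± 0.26 in OVX2_SCI7 (adjusted p = 0.0576, edgeR) and 0.66 ± 0.26 in OVX8_SCI7 (adjusted p = 0.0747). With the offset for GC content and length these were 0.40 and 0.19. Leaving out OVX2_SCI7 replicate 1 gave 1.08 and 0.65, and both passed (adjusted p = 0.00398 and 0.0231, edgeR). In that fit 34.7% and 37.2% of all genes passed. The summed level of 7 fibroblast markers varied more, from 628 to 2523 TPM in SCI7, from 480 to 7379 TPM in OVX2_SCI7 and from 2818 to 5397 TPM in OVX8_SCI7. OVX2_SCI7 replicates 3 and 1 held the highest and the lowest value of that group in both measures, and the part of fibroblasts in the Rarres2 result was not tested.

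**Figure D1:**
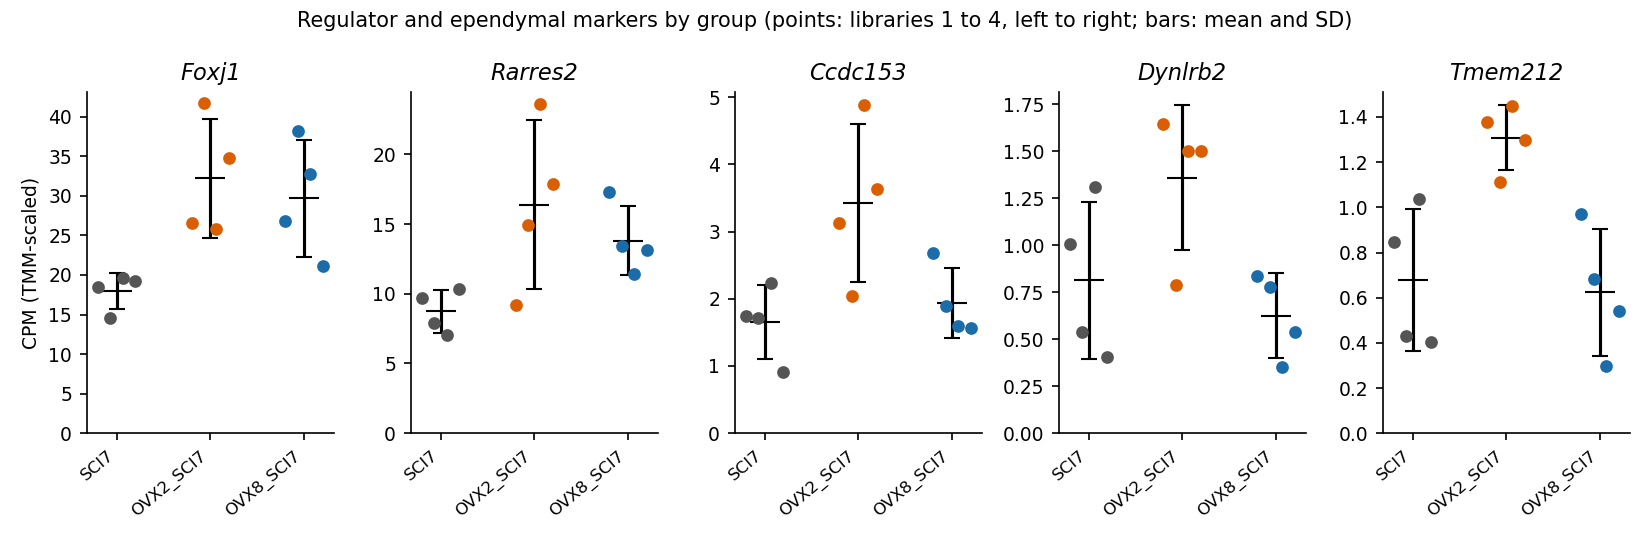
CPM (TMM-scaled, linear axes that start at 0) of the regulator Foxj1 and 4 ependymal markers in each library, by group, with the mean and SD as bars (n = 4). All 8 ovariectomy libraries lie above SCI7 for Foxj1, and the 4 OVX2_SCI7 libraries lie above the other 8 for Tmem212.

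Dynein heavy chains carry the motor. Among those grouped as inner arm chains, Dnah6 and Dnah12 differed most between the ovariectomy groups. Dnah6 stood at 3.8, 4.24, 5.94 and 5.7 CPM in SCI7 libraries 1 to 4, 10.1, 5.89, 7.56 and 6.12 CPM in those of OVX2_SCI7 and 4.23, 3.66, 4.05 and 4.59 CPM in those of OVX8_SCI7. Dnah12 stood at 2.75, 2.58, 3.22 and 2.57 CPM in SCI7 libraries 1 to 4, 5.73, 2.37, 2.57 and 2.95 CPM in those of OVX2_SCI7 and 1.98, 1.12, 1.4 and 2.0 CPM in those of OVX8_SCI7. For both genes every OVX8_SCI7 library lay below every OVX2_SCI7 library, and OVX2_SCI7 replicate 1 was the highest of the 12. In OVX8_SCI7 against OVX2_SCI7 the log2 fold change was -0.85 ± 0.22 for Dnah6 (unadjusted p = 0.00242) and -1.07 ± 0.31 for Dnah12 (unadjusted p = 0.00462), with an adjusted p of 0.999 for both (edgeR). These differences were -0.65 and -0.69 when that library was left out. Of the 10 inner arm chains, 9 had a negative difference in that comparison, beside 55.5% of all genes, and Dnah14, at 0.23 ± 0.47, did not. The 3 with the highest mean TPM were Dnah7b, Dnah1 and Dnah7a, and their differences were -0.31 ± 0.22, -0.02 ± 0.19 and -0.45 ± 0.41. With the same library left out, 8 of the 10 were negative, the median over the 10 moved from -0.40 to -0.21, Dnah7a was at 0.04 and Dnah7b at -0.08. Without replicates 1 and 2, 6 of the 10 were negative. Dnah7a, Dnah7b and Dnah7c are near-identical copies, so the split of reads among them is uncertain.

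Of the 5 outer arm heavy chains, 4 had a negative difference in OVX8_SCI7 against OVX2_SCI7, beside 55.5% of all genes. Dnah11 was the member whose libraries did not overlap, and 1.08% of all genes were lower without overlap. Dnah11 stood at 1.69, 2.69, 3.38 and 3.28 CPM in SCI7 libraries 1 to 4, 5.3, 2.92, 3.16 and 3.16 CPM in those of OVX2_SCI7 and 2.51, 2.42, 2.8 and 2.81 CPM in those of OVX8_SCI7. Its difference was -0.47 ± 0.26 (unadjusted p = 0.101, edgeR). Dnah9, the outer arm chain of airway and ependymal cilia, differed by -0.23 ± 0.22, and Dnah8, best known from sperm tails, by 0.49 ± 0.45 in the opposite direction. Dnah11 was at -0.22 and Dnah9 at -0.04 without OVX2_SCI7 replicate 1, and without replicates 1 and 2 Dnah9 was at 0.09 and Dnah8 at -0.09. With all 12 libraries none of the 15 heavy chains passed the adjusted edgeR test in any comparison. Against SCI7, DESeq2 called Dnah2 in OVX2_SCI7 (adjusted p = 0.0357) and Dnah7c in OVX8_SCI7 (adjusted p = 0.0332). Limma-voom with quality weights called these and others. Of all genes in the same comparisons, DESeq2 called 20.8% and 35.9%, and limma-voom with quality weights 54.4% and 63%.

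The 5 intermediate chains, which tie the motors to the doublets, had negative differences in OVX8_SCI7 against OVX2_SCI7, beside 55.5% of all genes. The named ones were Dnai1 at -0.15 ± 0.25, Dnai2 at -0.18 ± 0.19 and Dnai4 at -0.33 ± 0.21, all within 2 standard errors of 0. The 5 were also negative without OVX2_SCI7 replicates 1 and 2, with Dnai4 at -0.09. In the radial spokes, Rsph4a, a subunit of the spoke head, had its lowest mean in OVX8_SCI7. Rsph4a stood at 6.02, 4.35, 6.82 and 3.13 CPM in SCI7 libraries 1 to 4, 8.38, 3.39, 4.61 and 5.08 CPM in those of OVX2_SCI7 and 3.7, 2.64, 2.2 and 2.86 CPM in those of OVX8_SCI7. OVX2_SCI7 replicate 2 lay within the range of OVX8_SCI7, so the groups overlapped. The difference from OVX2_SCI7 was -0.91 ± 0.32 (unadjusted p = 0.0142, edgeR), and -0.60 without OVX2_SCI7 replicate 1 (unadjusted p = 0.0614). Of the other spoke head genes, Rsph1 differed by -0.29 ± 0.24 and Rsph9 by 0.04 ± 0.25, which was -0.15 without OVX2_SCI7 replicate 1. Rsph3a and Rsph3b, spoke stalk genes and near-identical copies, differed by 0.20 ± 0.20 and 0.02 ± 0.12.

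In the nexin-dynein regulatory complex, which links neighbouring doublets, Drc7 had its highest levels in OVX2_SCI7. Drc7 stood at 1.8, 1.07, 1.64 and 1.51 CPM in SCI7 libraries 1 to 4, 2.86, 3.2, 3.0 and 2.9 CPM in those of OVX2_SCI7 and 1.94, 2.52, 2.4 and 2.05 CPM in those of OVX8_SCI7. The 3 groups did not overlap on the CPM scale. The log2 fold change was 0.99 ± 0.21 in OVX2_SCI7 against SCI7, with the smallest unadjusted p among the 74 members (0.000438) and an adjusted p of 0.052 by edgeR, just short of passing. It was 0.56 ± 0.21 in OVX8_SCI7 (adjusted p = 0.0595) and -0.42 ± 0.20 between the ovariectomy groups (unadjusted p = 0.0573). With the GC content and length offset Drc7 was at 0.67 in OVX2_SCI7 and 0.08 in OVX8_SCI7 against SCI7 (unadjusted p = 0.00692 and 0.70, edgeR), and at -0.59 between the ovariectomy groups. In OVX2_SCI7 against SCI7 DESeq2 called Drc7 (adjusted p = 0.00137) with 20.8% of all genes, and edgeR with that offset did not (adjusted p = 0.259). On the TPM scale the same libraries overlapped, with 1.01, 0.71, 1.31 and 1.98 TPM in SCI7 and 2.82, 2.76, 1.63 and 2.17 TPM in OVX2_SCI7. Drc1 and Drc3 differed by 0.62 ± 0.22 and 0.20 ± 0.23 in OVX2_SCI7 against SCI7, and Drc3 by -0.03 without OVX2_SCI7 replicates 1 and 2.

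Tektins are filament proteins inside the doublets, and none of the 4 tested passed by edgeR in any comparison. Limma-voom with quality weights called Tekt4 higher than in SCI7 in OVX2_SCI7 and in OVX8_SCI7 (adjusted p = 0.0031 and 0.0236). That setting called 54.4% of all genes in the former comparison and 63% in the latter, so these calls do not set Tekt4 apart. Tekt5, the most abundant by TPM, varied within groups more than between them, from 4.6 to 16.1 TPM in SCI7 and from 3.79 to 12.6 TPM in OVX2_SCI7. Tekt1 and Tekt2 differed by -0.25 ± 0.24 and 0.28 ± 0.45 between OVX8_SCI7 and OVX2_SCI7, and Tekt2 by -0.12 without OVX2_SCI7 replicates 1 and 2.

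**Figure D2:**
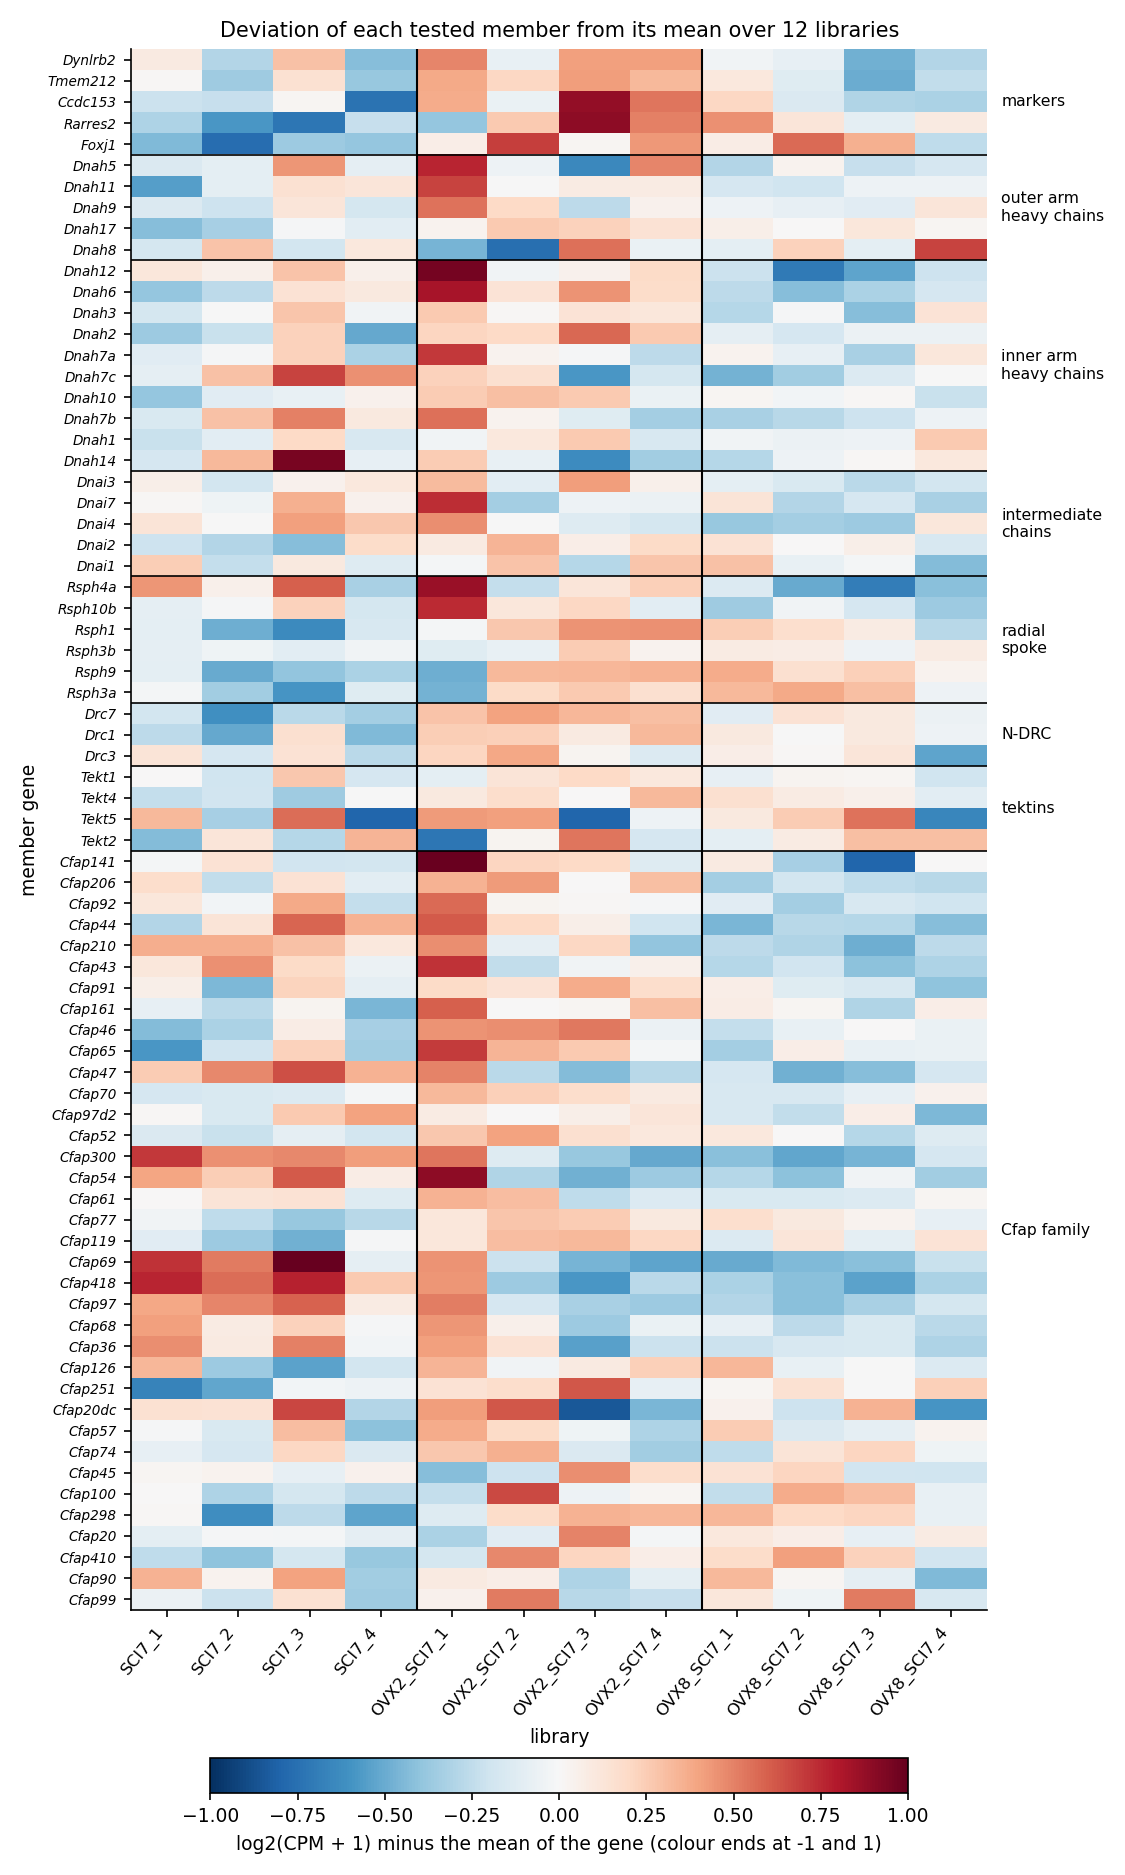
Deviation of each of the 74 tested genes (rows, grouped by role) from its own mean over the 12 libraries (columns), as log2(CPM + 1), with red above and blue below the mean and the colours ending at -1 and 1. OVX2_SCI7 replicate 1 is red in most rows and the OVX8_SCI7 libraries are mostly pale or blue.

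Against SCI7, OVX8_SCI7 gave the calls among these genes, 3 higher and 6 lower. Of the 74 genes, 9 passed an adjusted p of 0.05 (12.2%), while 27.5% of all 17820 genes passed. The share of members thus lay below the background, a difference that was not tested. The background was 11.9% called higher and 15.6% called lower. Foxj1 was 1 of the 3 that rose, and the others were Cfap410 and Cfap77.

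The 6 that fell were all Cfap genes, and their products have varied roles. Cfap418, a protein needed in photoreceptors, was the most abundant of them. Cfap418 stood at 45.9, 39.8, 45.96 and 32.1 CPM in SCI7 libraries 1 to 4, 36.5, 20.5, 17.5 and 21.9 CPM in those of OVX2_SCI7 and 21.1, 19.6, 18.1 and 21.2 CPM in those of OVX8_SCI7. It fell by 1.03 ± 0.22 on the log2 scale (adjusted p = 0.0143, edgeR), and all OVX8_SCI7 libraries lay below those of SCI7. Cfap300, an assembly factor of dynein arms, had a log2 fold change of -1.07 ± 0.26 (adjusted p = 0.0161). Cfap300 stood at 9.56, 7.9, 8.02 and 7.62 CPM in SCI7 libraries 1 to 4, 8.38, 4.92, 3.97 and 3.53 CPM in those of OVX2_SCI7 and 3.83, 3.51, 3.7 and 4.75 CPM in those of OVX8_SCI7. Again the groups did not overlap, and OVX2_SCI7 replicate 1 was at the level of SCI7. Cfap69, known from sperm tails and olfactory cilia, had -1.14 ± 0.30 (adjusted p = 0.0195), and Cfap47, a central pair protein, -1.33 ± 0.37 (adjusted p = 0.0242). Cfap97 had -0.72 ± 0.20 (adjusted p = 0.024), and Cfap210, a protein of the inner wall of the doublets, -0.94 ± 0.27 (adjusted p = 0.0277).

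Among the genes that rose, Cfap410, a gene of primary cilia and of DNA repair, had the smallest change of the 9. Cfap410 stood at 18.1, 16.2, 19.2 and 16.5 CPM in SCI7 libraries 1 to 4, 19.2, 30.9, 25.5 and 22.9 CPM in those of OVX2_SCI7 and 24.9, 29.3, 25.7 and 19. CPM in those of OVX8_SCI7. Its log2 fold change was 0.50 ± 0.17 (adjusted p = 0.0491, edgeR), and OVX8_SCI7 replicate 4 lay within the range of SCI7. Cfap77, another protein inside the doublets, had 0.98 ± 0.34 (adjusted p = 0.0478) at 0.29 ± 0.132 CPM (SD, n = 4) in SCI7 and 0.577 ± 0.116 CPM in OVX8_SCI7.

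The direction of these calls went with the base composition of the transcripts. The 6 that fell have a GC content of 37.6 to 43.2%, and the 3 that rose 51.8 to 61.4%, where the median over tested members was 49.8%. All 13 members under 45% GC had a negative difference, with a median of -0.83, beside a median of -0.73 over all 4414 tested genes of that class. Above 55% GC all 7 members had a positive one, with a median of 0.50 beside 0.67 over 4093 genes. From 45 to 50% GC 4 of 24 members were positive (median -0.35, beside -0.20 over all genes of that class). From 50 to 55% GC it was 25 of 29 (median 0.19 beside 0.25). The members' median lay below that of all genes in each class, which was not tested. With an offset that takes the dependence on GC content and length out of every library, no member and no other gene was called by edgeR (15.4% of all genes and 6 members had an unadjusted p under 0.05), and Foxj1 and Cfap410 changed sign. The library correlations with GC content differed by group, from -0.82 to -0.50 in SCI7 and from 0.16 to 0.84 in OVX8_SCI7. The offset therefore also takes out any group difference that follows GC content. It was fitted on genes of at least 5 CPM and extended to the others. Without OVX8_SCI7 replicate 2, the most deeply sequenced library, edgeR called no member and no other gene, while 15 of 75 members and 33.5% of all genes had an unadjusted p under 0.05.

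A positive difference was found for 36 of 74 members (48.6%), against 50.9% of all genes, and the median was -0.03 beside 0.01. With the GC content and length offset 22 of 74 were positive (29.7%), against 42.4% of all genes, and the median was -0.18. Groups did not overlap for 6 members higher in OVX8_SCI7 (8.11%, background 19.6%) and 11 lower (14.9%, background 19.6%).

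**Figure D3:**
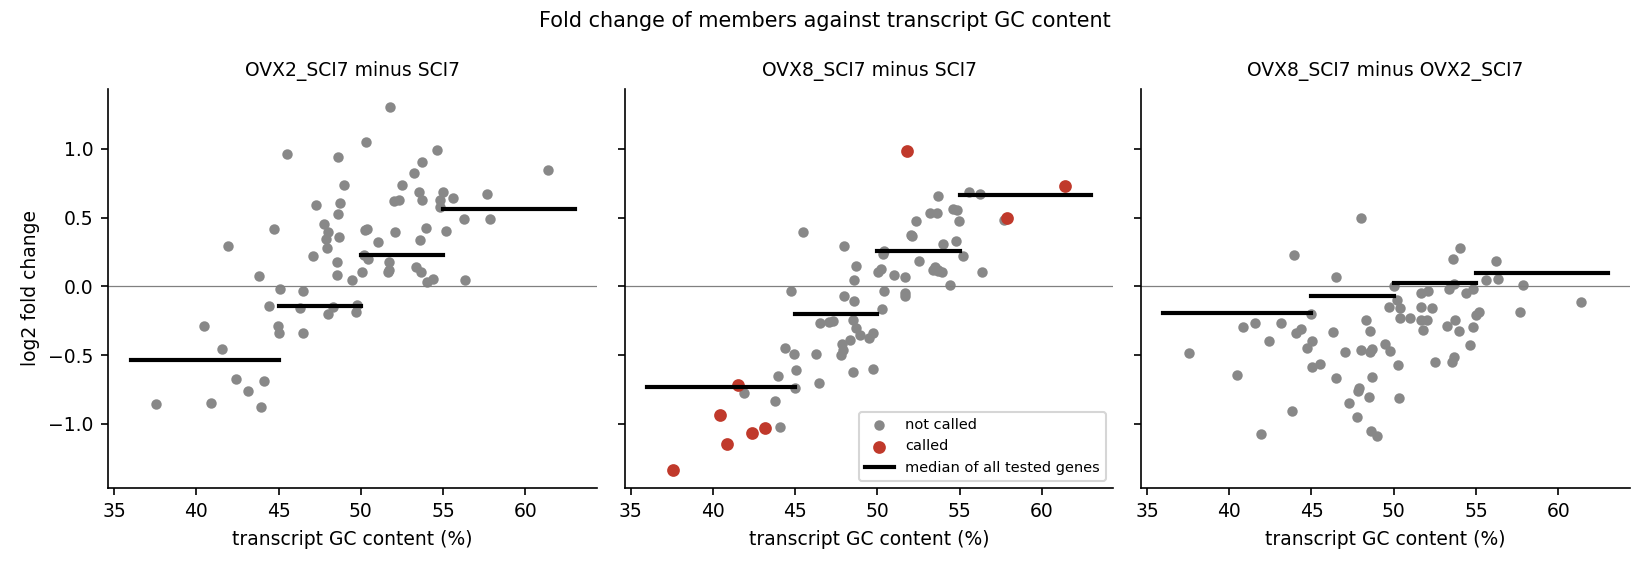
Log2 fold change of each tested member against the GC content of its transcript in 3 comparisons, with called members in red and black lines for the median of all tested genes in 4 GC classes. In OVX8_SCI7 against SCI7 the members rise with GC content as the black lines do, which run from -0.73 under 45% to 0.67 over 55% GC. The members' median lies below the line in each class there. In OVX8_SCI7 against OVX2_SCI7 most points lie below the black lines.

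In OVX2_SCI7 against SCI7 no member was called, nor was any of the 17820 genes (0.0%), with a smallest adjusted p of 0.052 by edgeR. DESeq2 called 13 members there, 11 higher and 2 lower, among 1979 higher and 1722 lower genes in all (17.6% of members, 20.8% of all genes). At an unadjusted p under 0.05, 22 members were higher (29.7%) beside 17.5% of all genes, and 5 were lower (6.76%) beside 15.0%. The difference was positive for 55 of 74 members (74.3%) and for 52.5% of all genes, and the median was 0.31 beside 0.04. For 11 members every OVX2_SCI7 library lay above every SCI7 library (14.9%, background 6.13%): Foxj1, Tmem212, Drc7, Rsph1, Tekt4, Dnah17, Cfap410, Cfap119, Cfap52, Cfap70 and Cfap77. For none did every library lie below (background 6.29%). Without OVX2_SCI7 replicate 1, 19 members were called, 13 higher and 6 lower, among 3081 higher and 3183 lower genes in all, which is 25.7% of members beside 34.7% of all genes. In that fit 47 of 74 members were positive and their median was 0.17, and without replicates 1 and 2 it was 44 of 75, with a median of 0.21. Over all genes 51.3% were positive in the former fit (median 0.03) and 49.6% in the latter (median -0.01). The median of the members was 0.20 with the GC content and length offset and 0.08 on log2(TPM + 1), beside 0.02 and -0.04 over all genes.

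The 5 members lower at an unadjusted p under 0.05 were Cfap418, Cfap300, Cfap47, Cfap69 and Cfap97. Both comparisons with SCI7 share its libraries, so their values for these genes are not independent. The log2 fold changes in OVX2_SCI7 were -0.76 ± 0.21 for Cfap418, -0.67 ± 0.25 for Cfap300 and -0.85 ± 0.29 for Cfap69, beside -1.03 ± 0.22, -1.07 ± 0.26 and -1.14 ± 0.30 in OVX8_SCI7. With the offset these were -0.38, -0.25 and -0.25, beside -0.55, -0.54 and -0.40. The values in OVX2_SCI7 were -1.05, -1.01 and -1.16 without its replicate 1.

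Between the ovariectomy groups the members lay lower in OVX8_SCI7 than in OVX2_SCI7, in small steps of which none passed the adjusted test. No member and no gene was called by edgeR (0.0%, smallest adjusted p 0.999), and DESeq2 called 3 higher and 3 lower genes, none of them members. The difference was negative for 63 of 74 members (85.1%), against 55.5% of all genes, and the median was -0.30 beside -0.03. At an unadjusted p under 0.05, 18 members were lower (24.3%) beside 1.89% of all genes, and 0 were higher beside 0.32%. For 12 members every OVX8_SCI7 library lay below every OVX2_SCI7 library (16.2%, background 1.08%), and for 0 above (background 0.241%). These were Tmem212, Drc7, the heavy chains Dnah2, Dnah6, Dnah11 and Dnah12, and Cfap206, Cfap44, Cfap52, Cfap70, Cfap91 and Cfap92. Members share libraries and are not replicates, so these shares describe the 8 libraries and carry no p.

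Cfap206, which anchors a radial spoke, had the smallest unadjusted p of the members. Cfap206 stood at 1.64, 0.967, 1.58 and 1.16 CPM in SCI7 libraries 1 to 4, 1.96, 2.14, 1.34 and 1.87 CPM in those of OVX2_SCI7 and 0.837, 1.06, 0.949 and 0.918 CPM in those of OVX8_SCI7. The ovariectomy groups did not overlap, and SCI7 lay between them on average. The log2 fold change was -0.95 ± 0.25 (unadjusted p = 0.00229, adjusted p = 0.999, edgeR). Cfap44, whose promoter stretch is printed above, differed by -0.67 ± 0.25 (edgeR, unadjusted p = 0.0199), and Cfap46, a central pair protein, by -0.55 ± 0.21 (unadjusted p = 0.0218). Without OVX2_SCI7 replicates 1 and 2 the differences were -0.76 for Cfap206, -0.36 for Cfap44 and -0.43 for Cfap46. Others stood near 0, such as 0.00 ± 0.16 for Cfap20, a protein of the doublet junction, and 0.01 ± 0.17 for Cfap410, and the highest, 0.49 ± 0.45 for Dnah8, was close to its standard error. The sign of values this near 0 was not stable: without OVX2_SCI7 replicate 1, Cfap20 was at -0.09 and Cfap410 at -0.09.

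The differences stayed mostly negative under the settings tried, although their number past an unadjusted p of 0.05 moved. With the GC content and length offset, 68 of 74 members had a negative difference (median -0.35), and 24 had an unadjusted p under 0.05 beside 2.86% of all genes. Without OVX2_SCI7 replicate 1, 60 of 74 were negative (median -0.19) and 9 had an unadjusted p under 0.05, beside 1.62% of all genes. Without replicates 1 and 2 of OVX2_SCI7, 52 of 75 were negative (median -0.22), with 10 beside 6.19%. In these 3 fits, in order, 8.11%, 18.9% and 30.7% of members were positive. Over all genes the positive shares were 33.8%, 48.9% and 46.1%, with medians of -0.07, -0.004 and -0.03. In the main fit 14.9% of members and 44.5% of all genes were positive, so the offset moved all genes down as well.

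**Figure D4:**
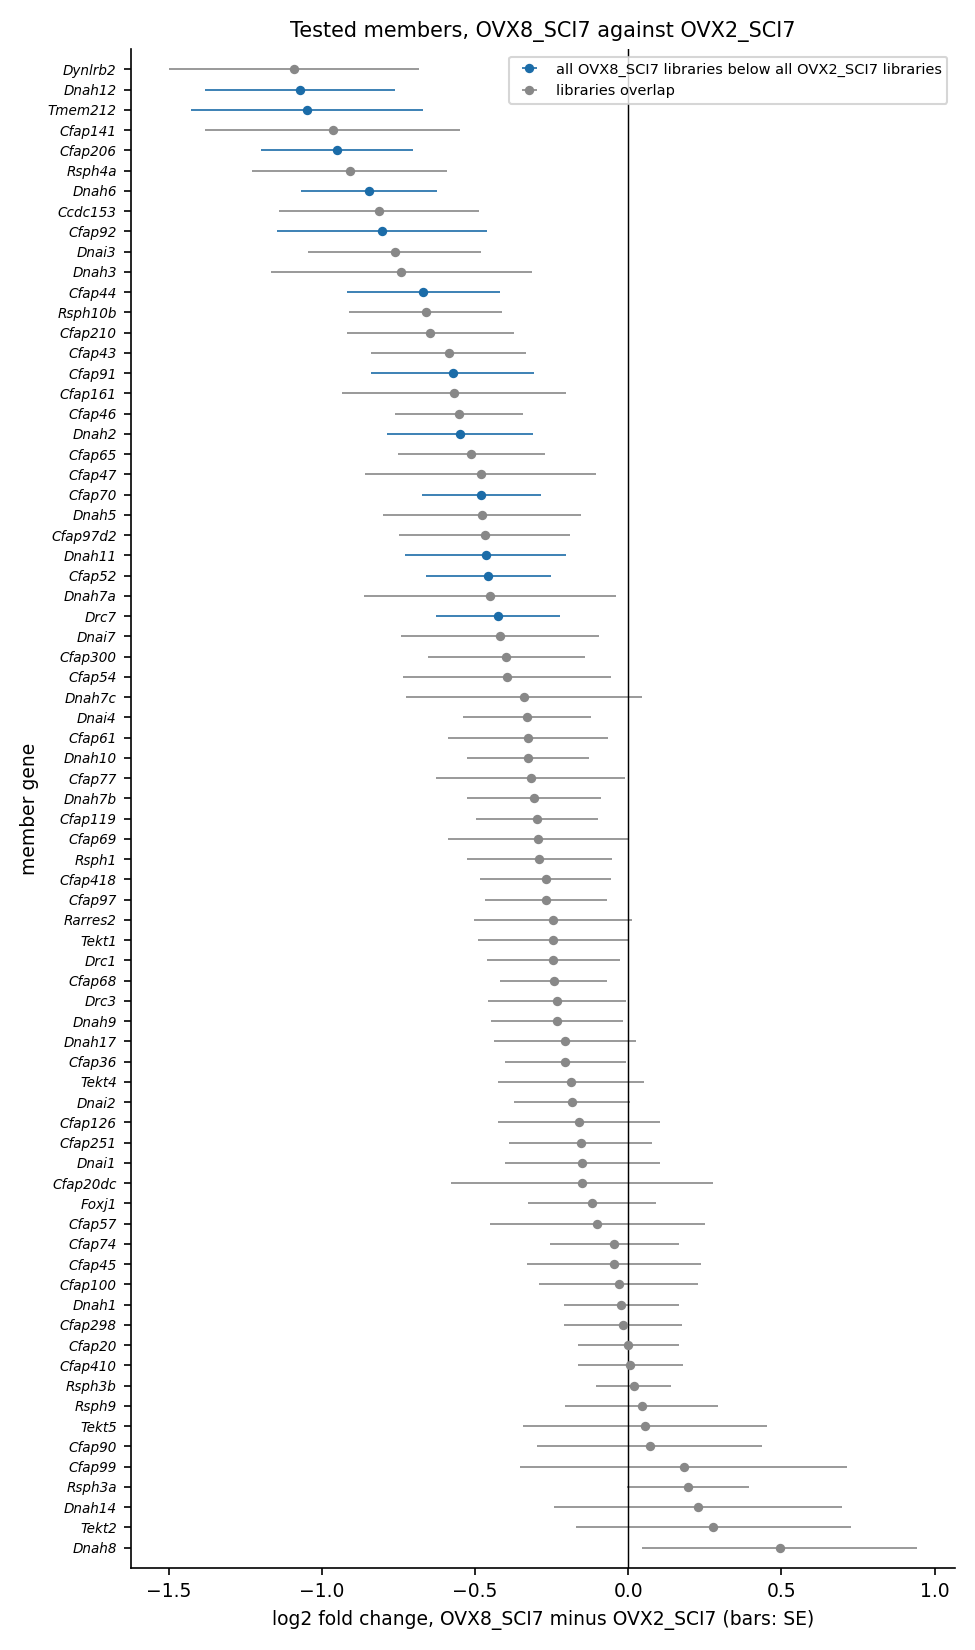
Log2 fold change of each of the 74 tested members in OVX8_SCI7 against OVX2_SCI7 (edgeR; bars are 1 SE), sorted. Of the 74, 63 lie left of 0, and the 12 in blue are those whose OVX8_SCI7 libraries all lie below all OVX2_SCI7 libraries.

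By library, the median deviation of the 74 genes from their own means, as log2(CPM + 1), was 0.32, 0.14, 0.09 and 0.04 in OVX2_SCI7 libraries 1 to 4. It was -0.08, -0.07, -0.09 and -0.16 in those of OVX8_SCI7, and -0.07, -0.15, 0.15 and -0.12 in those of SCI7. The 4 OVX2_SCI7 libraries thus lay above the 4 OVX8_SCI7 libraries, and SCI7 replicate 3 lay among them. Over all tested genes these medians stayed between -0.03 and 0.02. OVX2_SCI7 replicate 1 was the highest of the 12 libraries for 25 of 74 members (33.8%), beside 7.89% of all genes.

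Markers of other cells moved between these libraries too. SCI7 replicate 3 and OVX2_SCI7 replicate 1, the library highest in its group each time, had the highest sums over 5 neuron markers (3263 and 3029 TPM, against 533 to 2412 TPM elsewhere). They also had the lowest sums over 7 fibroblast markers (628 and 480.0 TPM, against 1138 to 7379 TPM) and over 6 markers of microglia and macrophages (316 and 440.1 TPM, against 667 to 1489 TPM). Sums over 5 oligodendrocyte markers and over 6 astrocyte markers were highest in OVX2_SCI7 replicates 1 and 2, at 25310 and 27540 TPM (9811 to 20990 TPM elsewhere) and at 6459 and 7491 TPM (2880 to 6029 TPM elsewhere). The 4 skeletal muscle markers summed to 36.4, 3.05, 25.6 and 40.6 TPM in OVX8_SCI7 libraries 1 to 4 and to 1.17 to 14.2 TPM in the other 8 libraries. All 4 had a positive difference in OVX8_SCI7 against OVX2_SCI7, with a median of 2.46, 3 of them at an unadjusted p under 0.05 and none past adjustment (edgeR). The part of tissue composition in the members' levels was not tested. The 6 choroid plexus markers, another source of Foxj1 and of motile cilia, summed to 3.27 to 8.91 TPM, and 5 spermatogenic markers to at most 0.58 TPM.

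**Figure D5:**
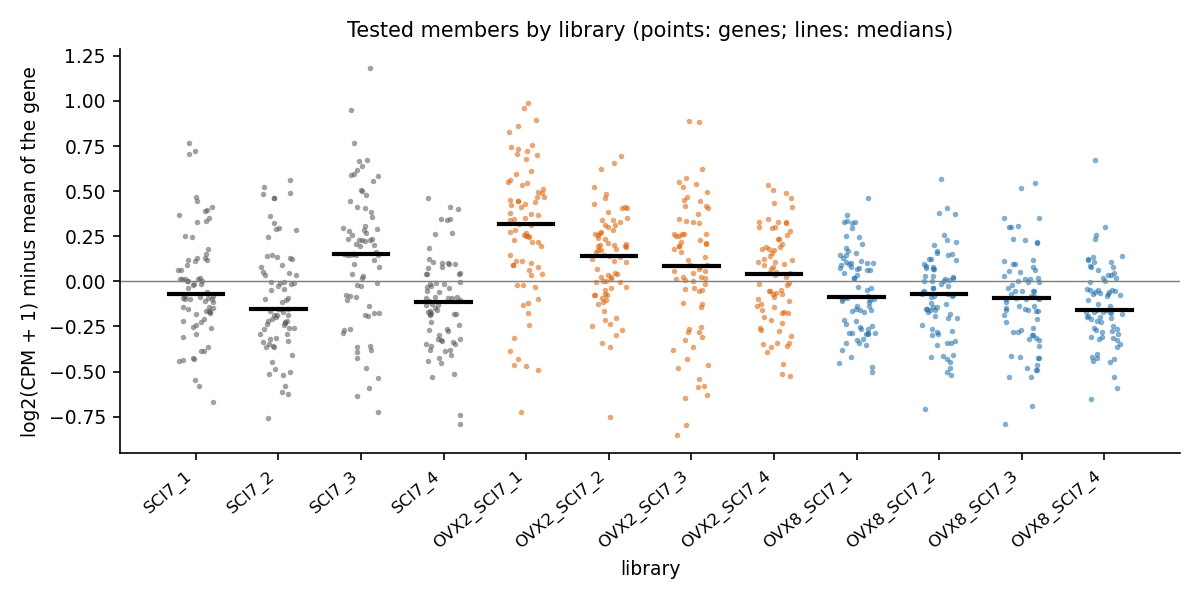
Deviation of the 74 tested genes (points) from their own means over the 12 libraries, as log2(CPM + 1), with the median of each library as a line. The medians of the OVX2_SCI7 libraries run from 0.04 to 0.32 and those of OVX8_SCI7 from -0.16 to -0.07.

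The members varied together across libraries to very different degrees. As a description over 12 libraries, which share groups, GC trends and composition, each gene was correlated with the mean of the other 73 on log2(CPM + 1). The median Pearson r was 0.46, with 33 of 74 genes above 0.5 and 9 below 0. The genes most like the rest were Rsph10b (0.88), Cfap92 (0.88), Dnah6 (0.80), Cfap206 (0.79), Tmem212 (0.79) and Dynlrb2 (0.78). Foxj1 had 0.18 and Rarres2 -0.13, and the lowest were Tekt2 at -0.66, Dnah8 at -0.64 and Rsph3a at -0.45.

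Axonemal genes whose names fall outside the rule had mostly negative differences between the ovariectomy groups. This list was chosen with earlier results of these data known and measured in the same libraries, so it is not independent of the members. Of 24 such genes, all tested, 23 had a negative difference in OVX8_SCI7 against OVX2_SCI7, with a median of -0.44, 7 at an unadjusted p under 0.05 and 7 without overlap. Of all genes 55.5% were negative, 1.89% were lower at that p and 1.08% were lower without overlap. None of the 24 passed the adjusted edgeR test in that comparison. Without OVX2_SCI7 replicate 1, 23 were negative (median -0.36) and 4 had an unadjusted p under 0.05, and without replicates 1 and 2, 19 were negative (median -0.40). Hydin, a central pair protein, stood at 2.42 ± 0.247, 3.75 ± 1.0 and 2.21 ± 0.278 CPM (SD, n = 4) in SCI7, OVX2_SCI7 and OVX8_SCI7, a difference of -0.76 ± 0.22 between the last pair. Spag16, also of the central pair, differed by -1.44 ± 0.43, which was -0.95 without OVX2_SCI7 replicate 1. Both were picked here after their values were seen. The most abundant, Dynll1 and Tppp3, differed by -0.12 ± 0.20 and -0.31 ± 0.32, and both are also made by other cells of the cord. Against SCI7, 1 of the 24 rose in OVX8_SCI7 (Gas8, of the nexin-dynein regulatory complex) and 3 fell (Ccdc39, a doublet ruler protein, Spef2 and Spag16). In this comparison 27.5% of all genes were called, and with the GC content and length offset edgeR called no gene at all, so none of the calls named here or in the lists below was made in that fit. In OVX2_SCI7 against SCI7 0 of the 24 passed, 9 had an unadjusted p under 0.05 and 19 were positive. Of all genes 32.5% had such a p there (edgeR) and 52.5% were positive.

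Intraflagellar transport genes, which build primary as well as motile cilia, had differences near 0 between the ovariectomy groups. Of 22 tested, 16 were negative in OVX8_SCI7 against OVX2_SCI7, beside 55.5% of all genes. The median of the 22 was -0.07, with none at an unadjusted p under 0.05. Without OVX2_SCI7 replicate 1, 11 of the 22 were negative, and without replicates 1 and 2 it was 7. The most abundant, Ift20 and Ift46, differed by -0.11 ± 0.15 and 0.01 ± 0.12. Against SCI7, 3 rose in OVX8_SCI7 (Ift122, Ift140 and Ift172) and 5 fell (Ift56, Ift57, Ift74, Ift80 and Ift88), beside the 27.5% of all genes.

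Of 8 regulators of multiciliation, 6 passed the filter. Rfx4 and Rfx3, the most abundant, encode RFX factors, and Rfx3 fell in OVX8_SCI7, from 25.7 ± 4.66 to 11.98 ± 2.13 CPM (SD, n = 4), with a log2 fold change of -1.10 ± 0.27 (adjusted p = 0.0165, edgeR). Rfx4 had -0.54 ± 0.24 (adjusted p = 0.107). The Rfx3 transcript has a GC content of 40.2%, in the class whose genes had a median of -0.73, and with the offset its difference was -0.29 (unadjusted p = 0.0433, edgeR). Gmnc and Mcidas, which start the programme in progenitors, were under the filter, at group means of 0.121 to 0.975 CPM for Gmnc and 0 to 0.0493 CPM for Mcidas. Of 11 dynein assembly factors, which include the members Cfap298 and Cfap300, 9 were tested, and 1 rose in OVX8_SCI7 (Dnaaf3, 1.29 ± 0.33, adjusted p = 0.0195, edgeR, and 0.59 with the offset) and 1 fell (Cfap300). The most abundant, Cfap298 and Spag1, had 0.56 ± 0.19 and -0.40 ± 0.25, and did not pass. Of all genes, edgeR called 27.5% in OVX8_SCI7 against SCI7.

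Of 9 ependymal genes that are not axonemal, 8 had a negative difference in OVX8_SCI7 against OVX2_SCI7, beside 55.5% of all genes. The median of the 9 was -0.27, with none at an unadjusted p under 0.05. Without OVX2_SCI7 replicate 1, 6 were negative, with a median of -0.15, and without replicates 1 and 2 it was 5, with a median of -0.07. Against SCI7, 2 fell in OVX8_SCI7 (Cd24a, a surface protein of ependymal and other cells, and Sox2, a factor of neural progenitors and glia) and 0 passed in OVX2_SCI7. Of all genes, edgeR called 27.5% in the former comparison and 0.0% in the latter. The list did not move as a whole: in OVX8_SCI7 against SCI7, 3 of the 9 were positive and 6 negative. The median was -0.17 and the highest value 0.62, and 50.9% of all genes were positive. Summed over the 9, the level was 1254 to 2521 TPM in SCI7 and 1787 to 2178 TPM in OVX8_SCI7, and these groups overlapped.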

How the data were processed

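Per the submitters' processing notes, reads were handled with fastp 0.23.4, HISAT2 2.2.1 and RSEM 1.3.3 on GRCm39, and the order and settings of these steps, the library kit and the use of strand are not given in the sources used here. The authors deposited expected counts, estimates by RSEM that can be fractions, rounded to whole numbers here. The authors also deposited TPM, which is used here for levels compared between genes. The authors' group means and FPKM were not used.

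Counts were tested with edgeR 4.0.16 in R 4.3.3 (filterByExpr, TMM scaling, robust quasi-likelihood test, all 12 libraries in 1 fit with the group as its term). Benjamini-Hochberg adjustment ran over all 17820 genes tested, at a threshold of 0.05. CPM is TMM-scaled. The alternatives were DESeq2 1.42.0 and its size factors, limma 3.58.1 (voom with and without quality weights, trend on log2(TPM + 1) and log2(TPM + 0.1)), no filter, a stricter filter (4 libraries at 1 CPM or more, mean count 50 or more), the 8 libraries of a comparison, the replicate number as a block, protein-coding nuclear genes, leaving out libraries, and an offset for GC content and length. The offset was fitted per library as natural splines (5 degrees of freedom) over genes of at least 5 CPM, using GENCODE transcripts of GRCm38. GC content was known for 86 of the 87 genes. Only the main edgeR fit was tried on simulated counts, which held no GC trend and no outlying library. The offset and the other settings were not tried in this way.

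The genes, roles and other lists were chosen with earlier results of these data known. Named are the 5 markers, the 3 members of each role with the highest mean TPM, the 5 members with the smallest p in each direction of a comparison at a mean of at least 1 CPM, and the 2 most abundant genes of each other list. Members also named beyond this rule, among them Cfap92 and Rsph10b, were chosen after their values were seen. Promoter windows are from RefSeq on GRCm38.p6, an older build than that of the counts, which carry no coordinates. The 12 samples are labelled biological replicates.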

Additional observations from a re-analysis of the deposited data

Results flagged for a closer look

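In 43 named genes and 3 groups, 129 sets of 4 libraries were examined for a library far from the other 3, and 8 were found. Chance gives about 1 in 20 such sets. In OVX2_SCI7, replicate 1 stood apart for Rsph9 at 2.174 CPM (others 4.595 to 4.665), for Dnah11 at 5.302 CPM (others 2.924 to 3.162) and for Cfap47 at 2.121 CPM (others 0.643 to 0.835). Replicate 2 stood apart for Dynlrb2 at 0.789 CPM (others 1.501 to 1.644), and replicate 4 for Cfap46 at 3.939 CPM (others 5.991 to 6.378). In OVX8_SCI7, replicate 4 stood apart for Dnai4 at 8.8 CPM (others 5.949 to 6.147) and for Dnah1 at 5.938 CPM (others 4.564 to 4.671), and replicate 3 for Rsph3b at 17.58 CPM (others 19.25 to 19.35).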

How the results depend on the processing

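In OVX8_SCI7 against OVX2_SCI7, no member was called under any of the settings run. In OVX2_SCI7 against SCI7, where edgeR called 0, the count was 1 under the stricter filter (2.33% of members, 7.96% of all genes) and with protein-coding nuclear genes only (1.35%, 4.76%), 3 with limma-voom (4.05%, 5.01%), 13 with DESeq2 (17.6%, 20.8%), 38 with limma-voom and quality weights (51.4%, 54.4%), and 19 without OVX2_SCI7 replicates 1 and 2 (25.3%, 38.8%). Leaving out 1 library at a time gave 0 to 19, the highest without OVX2_SCI7 replicate 1 (25.7%, 34.7%). In OVX8_SCI7 against SCI7, where edgeR called 9 (12.2% of members, 27.5% of all genes), the count was 16 with DESeq2 (21.6%, 35.9%), 34 with limma-voom and quality weights (45.9%, 63%), 20 with the 8 libraries alone (27.8%, 43.0%) and 21 without OVX2_SCI7 replicates 1 and 2 (28.0%, 41.9%). Leaving out 1 library gave 0 to 22, from 0 without OVX8_SCI7 replicate 2 to 22 without OVX2_SCI7 replicate 1, with 1 without OVX8_SCI7 replicate 3, 4 without OVX8_SCI7 replicate 1, 2 without SCI7 replicate 3 and 3 without SCI7 replicate 2. It was 0 with the GC content and length offset, alone or with the replicate block. There Foxj1 came to -0.142 with the offset and -0.144 with offset and block, and Cfap410 to -0.232 and -0.23, against 0.73 and 0.50 without. The cause was not tested.

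Same-numbered libraries did not deviate together, with correlations from -0.718 to 0.605, so the numbers were not taken to pair the mice. With the replicate block, 6 members were called in OVX8_SCI7 against SCI7, all lower (8.11% of members, 19% of all genes), and 0 in the other comparisons. Of the values recomputed for named members, 2891 kept direction and call, 138 newly passed, 71 ceased to pass, 210 uncalled ones changed sign and the 4 above reversed. Many members lie near 1 CPM, where counting error limits each library.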
